A study of Mus musculus with 36 samples.

Results

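Fgfbp1, Lgals3, Gbp2, Plaur, Stc1, Emilin2, Brinp2, Lbh and Lmo2 are 9 genes chosen because their level differed between mouse epiblast stem cells (EpiSC) kept in conditioned medium and EpiSC kept in basal medium, out of 19057 gene symbols with a probe of their own. Between them they had 14 of the 45281 probes on the array, found by gene symbol in the array's annotation. Of these, 12 were detected (detection p under 0.05) on at least 3 of the 36 arrays and were tested with the other probes that passed this filter, 23999 in all. For each gene the probe with the highest mean is described in full. EpiSC are pluripotent cells that correspond to the epiblast of the embryo after implantation. Each array held total RNA of EpiSC under 1 combination of retinoic acid (RA), a differentiation signal derived from vitamin A, and a second treatment. Before treatment the cells were kept on Matrigel in fibroblast-conditioned medium with bFGF and Activin, and the labels do not say which of these were present during the treatments.

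The groups were as follows. CM, medium conditioned by mouse embryonic fibroblasts, was measured on 3 arrays, of which 2 were without RA (CM for 24 h) and 1 had RA at 5 µM for 24 h (CM for 36 h). The 10 compounds were measured once in each of 3 schedules, on 30 arrays. Mock, the basal medium, had 1 array per schedule. The schedules were no RA for 36 h with the second treatment for 24 h (13 arrays), RA for 24 h with the second treatment for 36 h (12 arrays), and RA for 36 h with the second treatment for 24 h (11 arrays). The compounds were Rapamycin (100 nM), an mTOR inhibitor; PF573228 (250 nM), which blocks focal adhesion kinase; Dorsomorphin dihydrochloride (2 µM), which blocks BMP receptors and AMPK; and BAY 11-7082 (25 µM), which blocks NF-kB activation. The others were Forskolin (50 µM), an activator of adenylyl cyclase, BAPTA-AM (10 µM), a calcium chelator, Docetaxel (500 pM), which stabilises microtubules, Wortmannin (50 nM), a PI3 kinase inhibitor, Purmorphamine (2 µM), a Smoothened agonist, and SU5402 (2 µM), an FGF receptor inhibitor. No label says whether arrays of 1 group came from separate cultures, so the spread behind each p-value may be technical. CM and Mock arrays never shared a slide.

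Of the 9 genes, Fgfbp1, Plaur, Lgals3, Stc1 and Emilin2 encode secreted, matrix or cell surface proteins. Fgfbp1 encodes a carrier that frees FGFs from heparan sulphate in the matrix, and FGF signalling maintains EpiSC. Plaur encodes the receptor that holds the protease urokinase at the cell surface, where plasminogen is activated. Lgals3 encodes galectin-3, a lectin that binds galactose-containing sugar chains inside and outside the cell. Stc1 encodes stanniocalcin, a secreted glycoprotein known from fish as a regulator of calcium, and Emilin2 a glycoprotein of the elastic fibre matrix. Gbp2 encodes a guanylate-binding GTPase induced by interferon. Brinp2 belongs to a neural gene family named for its induction by BMP and RA, Lbh encodes a transcription cofactor described as a Wnt target in mouse, and Lmo2 a LIM-only protein that bridges transcription factors in blood and endothelial cells.

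Raw mean intensity of an array lay between 336 and 692 units, and 37.1% to 43.1% of probes were detected. The 11 EpiSC markers were all detected on the CM and Mock arrays without RA. Their summed level (linear scale) without RA was 54400 to 55100 on the CM arrays, against 42000 to 48900 on the 10 compound arrays and 42300 on the Mock array, so the CM arrays stood above both. Dnmt3b had the highest level of the 11 on each CM and Mock array and weighed most in these sums. Without RA it stood at 15.04 and 14.97 in CM against 14.59 in Mock. Pou5f1, Nanog, Otx2, Utf1 and Pim2 were also higher on both CM arrays without RA than on the Mock array. Sox2, Fgf5 and Tdgf1 were lower on both, and Zic2 and Cdh1 lay on either side. With RA for 24 h, 6 of the 11 EpiSC markers were detected on the CM array and 8 on the Mock array. The summed level with RA for 24 h was 3980 on the CM array and 5630 on the Mock array, against 9150 to 12200 on the 10 compound arrays, so both stood below the compound arrays of their schedule. Of the 13 fibroblast markers, Col5a1, Dcn and Fbln1 were detected on all 36 arrays and Col1a1 on 35, while Lum, Postn and Pdgfra were detected on 0. Thy1 was higher on the CM arrays without RA (8.45 and 8.18) than on the Mock array (7.32). The summed fibroblast level was 1670 to 1860 on the CM arrays without RA against 1990 on the Mock array, and 2490 on the CM array with RA against 3950 on the Mock array. The part of these shifts in the CM differences was not tested. Of the markers of blood cells and macrophages on the array, Csf1r was detected on 16 arrays, among them 1 CM and 1 Mock array, and Ptprc, Itgam, Tyrobp and Hba-a1 on 0.

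Promoter sequences were available for 6 of the genes, and those of Gbp2, Plaur and Lbh are shown because each holds a textbook promoter element at a position near the start of transcription. The 250 bases before the start are printed on the gene's strand from RefSeq (build GRCm38.p6), 5′ to 3′, with the matched motif in capitals. The Gbp2 window is chr3:142620413-142620662, the Plaur window chr7:24462233-24462482 and the Lbh window chr17:72918055-72918304, all on the + strand. The Plaur window lies inside the listed span of the gene (chr7:24460937-24475970), so the start used for it is not the first base of that span.
Gbp2: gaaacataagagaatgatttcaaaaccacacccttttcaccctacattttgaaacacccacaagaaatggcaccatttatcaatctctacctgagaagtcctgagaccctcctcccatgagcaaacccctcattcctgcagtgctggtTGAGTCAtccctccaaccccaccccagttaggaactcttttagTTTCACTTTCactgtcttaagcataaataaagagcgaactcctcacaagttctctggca
Plaur: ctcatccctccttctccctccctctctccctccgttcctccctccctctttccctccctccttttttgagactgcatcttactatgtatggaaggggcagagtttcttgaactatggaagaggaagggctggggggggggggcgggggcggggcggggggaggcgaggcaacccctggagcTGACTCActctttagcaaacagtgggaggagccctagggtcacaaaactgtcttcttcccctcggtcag
Lbh: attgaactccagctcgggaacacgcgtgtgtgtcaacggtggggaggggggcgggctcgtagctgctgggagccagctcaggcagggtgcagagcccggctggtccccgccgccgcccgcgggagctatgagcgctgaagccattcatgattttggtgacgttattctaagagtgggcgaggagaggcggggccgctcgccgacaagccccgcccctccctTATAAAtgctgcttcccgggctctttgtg
In the Gbp2 window the capitals mark the AP-1 motif TGAGTCA, 102 to 96 bases before the start, and a match on the opposite strand to the interferon response motif (GAAA, any 2 bases, GAAA), 59 to 50 bases before it. In Plaur they mark the AP-1 motif read on the other strand, 69 to 63 bases before the start, and in Lbh the TATA box TATAAA, 29 to 24 bases before it. Over the same window of 32851 promoters, TGAGTCA was found in 4.46% on either strand, the interferon response motif in 2.98% on either strand and TATAAA in 7.59% on the gene's strand. The interferon response motif was also found in an Emilin2 promoter, as was the interferon-gamma motif TTCNNNGAA (7.02% of promoters), and the TCF/LEF motif CTTTGAT (3.21%) in none of the promoters of these genes. The motifs were picked after the sequences had been seen. A match is a description of the letters and not evidence that a factor was bound.

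Fgfbp1, Lgals3, Gbp2 and Plaur were lower in CM than in Mock. Because the genes were chosen on these arrays, the values are given as a description with no test, as normalised log2 intensity. Fgfbp1 stood at 7.20 and 6.90 on the CM arrays without RA and at 6.94 on the CM array with RA, against 9.86 without RA, 8.99 with RA for 24 h and 8.63 with RA for 36 h on the Mock arrays. All CM arrays were low and close together whether or not RA was present, and the groups did not overlap. The difference of CM minus Mock was -2.81 without RA and -2.05 with RA for 24 h, or 6.99-fold and 4.13-fold lower. In RNA of whole cultures, fewer cells with a transcript and less transcript per cell cannot be told apart.

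Gbp2 stood at 6.42 and 5.28 on the CM arrays without RA and 5.74 on the CM array with RA, against 8.49, 7.79 and 7.70 on the Mock arrays without RA, with RA for 24 h and with RA for 36 h. The lowest of these CM arrays, the second replicate without RA, was not above background, and no CM array reached a Mock array. The difference of CM minus Mock was -2.64 without RA, a value limited by background on that replicate, and -2.05 with RA for 24 h. Plaur stood at 6.18, 5.10 and 6.22 on the CM arrays in the same order, against 7.74, 8.92 and 8.33 on the Mock arrays. The same CM replicate was again not above background, and again the groups did not overlap. The difference was -2.10 without RA, likewise limited by background on that replicate, and -2.70 with RA for 24 h.

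The CM arrays of Lgals3 differed widely among themselves. Lgals3 stood at 6.07 on both CM arrays without RA and at 8.82 on the CM array with RA, against 9.35, 10.24 and 9.74 on the Mock arrays. All CM values lay below all Mock values. The difference of CM minus Mock was -3.28 without RA, or 9.71-fold lower, and -1.42 with RA for 24 h, or 2.68-fold lower. Whether the difference itself varied with RA was not tested, since the genes were chosen on these arrays. CM and Mock also lasted 24 h without RA and 36 h with RA for 24 h. For each of the 9 genes, RA and time in the medium therefore cannot be told apart where the CM difference varied between schedules.

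**Figure D1:**
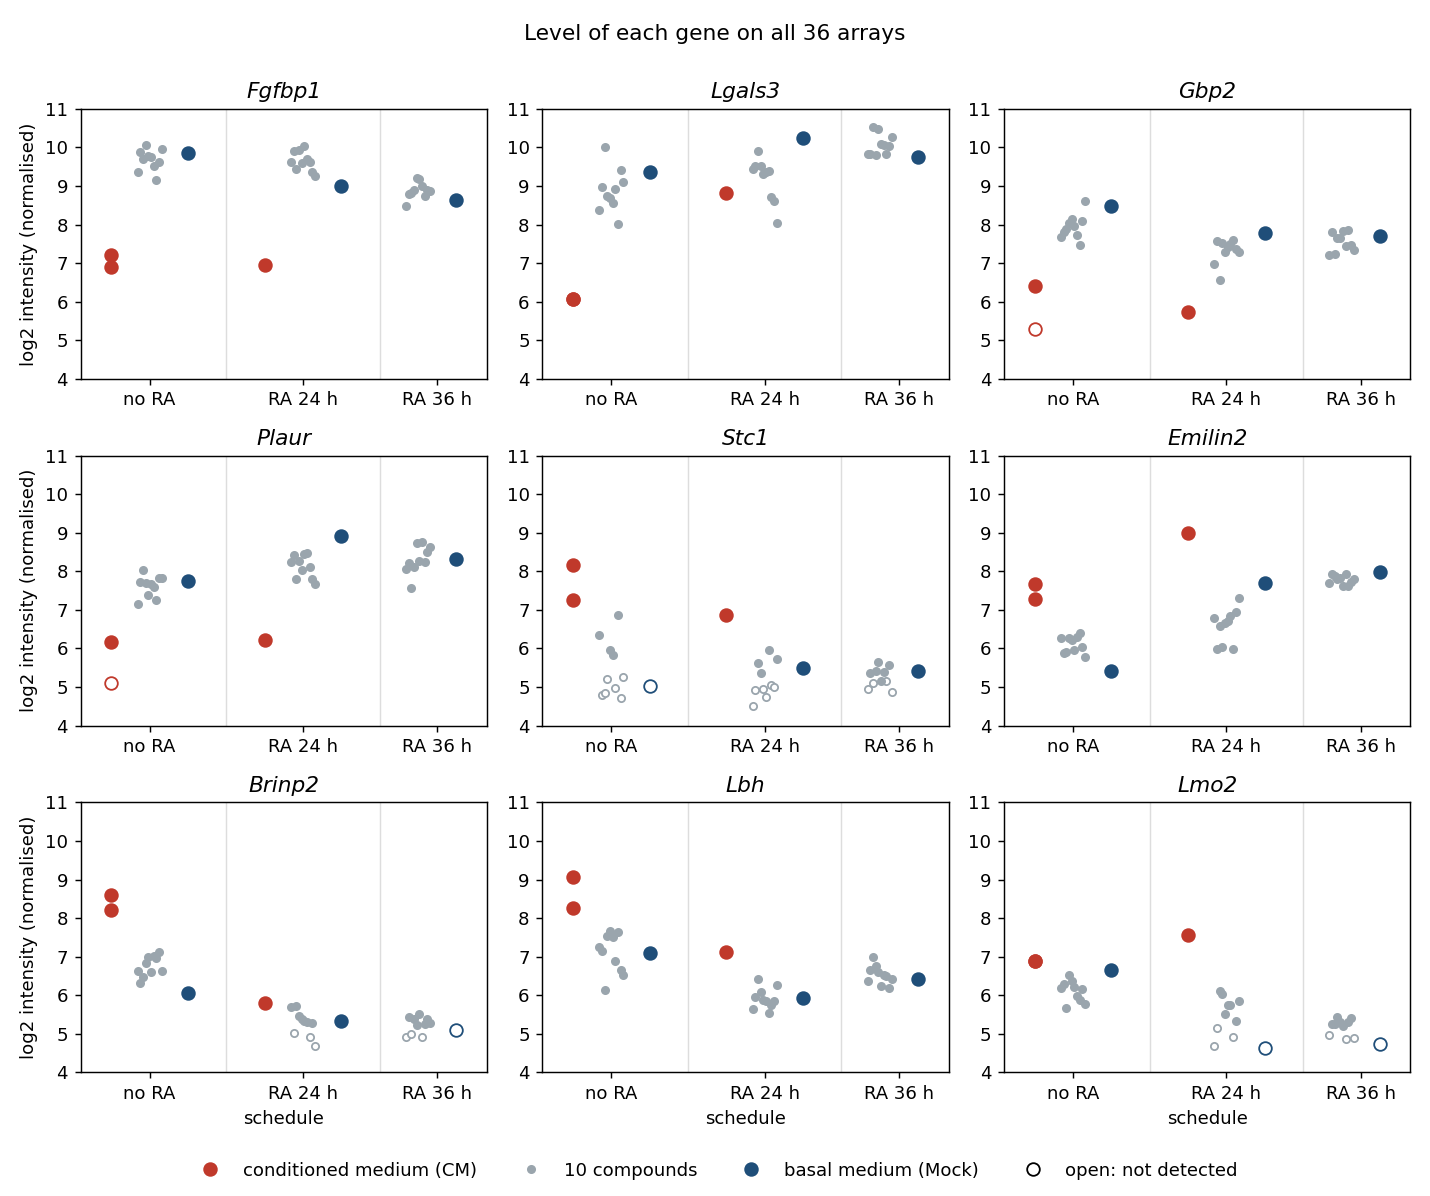
Normalised log2 intensity (vertical axis) of each of the 9 genes on all 36 arrays, by schedule (horizontal axis), with CM arrays in red, the 10 compound arrays in grey and the Mock array in blue; open symbols were not above background (detection p not under 0.05). Within each schedule, Fgfbp1, Gbp2 and Plaur lay below all compound arrays on every CM array, and Stc1, Emilin2, Brinp2, Lbh and Lmo2 above them. Brinp2 with RA for 24 h lay above by little (5.79 against a highest compound value of 5.73). For Lgals3 the 2 CM arrays without RA coincide at 6.07.

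Stc1, Emilin2, Brinp2, Lbh and Lmo2 were higher in CM than in Mock, by amounts that differed between schedules. Stc1 stood at 8.17 and 7.26 on the CM arrays without RA and 6.88 on the CM array with RA, against 5.04, 5.50 and 5.42 on the Mock arrays. All CM arrays were high, while the Mock array without RA was not above background. Stc1 was therefore at least 5.56-fold higher in CM without RA, a bound set by the detection limit of the Mock array, and 2.60-fold higher with RA for 24 h. Emilin2 stood at 7.66 and 7.29 on the CM arrays without RA and 8.99 on the CM array with RA, against 5.42, 7.71 and 7.97 on the Mock arrays. Within each schedule CM was the higher, but the CM values without RA lay below the Mock values with RA, so the groups overlapped across schedules. The difference of CM minus Mock was 2.05 without RA and 1.27 with RA for 24 h.

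Brinp2 stood at 8.21 and 8.61 on the CM arrays without RA and 5.79 on the CM array with RA, against 6.07, 5.33 and 5.11 on the Mock arrays. The 2 CM arrays without RA were high and the third was below the Mock array without RA. The difference of CM minus Mock was 2.34 without RA and 0.46 with RA for 24 h. Lbh stood at 9.07 and 8.27 on the CM arrays without RA and 7.12 on the CM array with RA, against 7.09, 5.92 and 6.43 on the Mock arrays. All CM values were above all Mock values, the nearest pair being the CM array with RA and the Mock array without it. The difference was 1.59 without RA and 1.20 with RA for 24 h.

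Lmo2 had the opposite pattern to Brinp2 across schedules. It stood at 6.89 on both CM arrays without RA and 7.57 on the CM array with RA, against 6.66, 4.64 and 4.74 on the Mock arrays, of which those with RA were not above background. CM without RA was close to Mock without RA (a difference of 0.23), and with RA for 24 h CM was at least 5.33-fold higher. The 4 endothelial markers had a summed level (linear scale) of 321 on the CM array with RA against 133 on the Mock array and 121 to 164 on the compound arrays of that schedule. Without RA it was 136 to 167 on the CM arrays against 187 on the Mock array, so that CM was the lower there. Tek stood at 7.63 on the CM array with RA against 5.89 on the Mock array, and at 6.13 and 5.71 on the CM arrays without RA against 6.80 on the Mock array. Kdr was above background on the CM array with RA (5.86) and not on the Mock array, and Pecam1 on no CM or Mock array. The part of endothelial transcripts in the Lmo2 value was not tested.

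**Figure D2:**
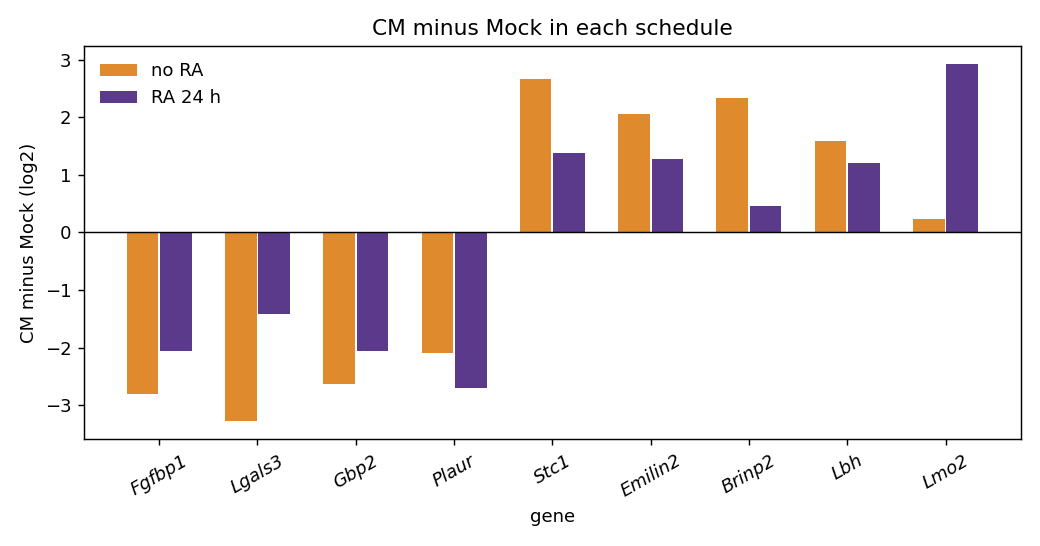
Difference of CM minus Mock (log2, vertical axis) for each gene, without RA (orange, mean of 2 CM arrays minus 1 Mock array) and with RA for 24 h (purple, 1 array each); there are no error bars because Mock had 1 array per schedule. For Stc1 without RA and Lmo2 with RA the Mock array was not above background. The first 4 genes lie below 0 and the other 5 above it in both schedules, with bars between -3.28 (Lgals3, no RA) and 2.93 (Lmo2, RA 24 h).

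The compound arrays give a second set of arrays beside which to place CM. For 8 of the 9 described probes all 3 CM arrays lay on 1 side of the 10 compound arrays of their own schedule, 5 above them and 3 below, as did 4.23% of all tested probes (1.7% above and 2.53% below). The exception was Lgals3, whose CM array with RA (8.82) lay within the compound arrays (8.04 to 9.90). Brinp2 on that CM array (5.79) was above the highest compound array (5.73) by little. Against the 5 compound arrays on its own slide, each CM array also lay outside, apart from the same Lgals3 array. For Fgfbp1 these within-slide differences were -2.52 and -2.74 without RA and -2.54 with RA, and for Emilin2 they were 1.51 and 1.23 without RA and 2.09 with RA. The Mock arrays were placed differently from gene to gene: all 10 compound arrays with RA for 24 h lay above the Mock array for Fgfbp1 and Lmo2, and all 10 lay below it for Lgals3, Gbp2, Plaur and Emilin2. The model that puts all arrays together gave an adjusted p under 0.05 to 10 of the 12 tested probes of these genes, against 2.63% of all probes (632), 0.871% higher and 1.76% lower. The tested probes that did not pass were the second Lbh probe and a Gbp2 probe above background on 6 of 36 arrays. A difference of at least 1 on the log2 scale in both schedules was shown by Stc1, Emilin2 and Lbh upwards and by Fgfbp1, Lgals3, Gbp2 and Plaur downwards, and by 0.704% of all probes, 0.175% higher and 0.529% lower. As the genes were chosen on this contrast, these counts are no test of them. The 632 calls depended on single arrays, and were 188 without the Mock array without RA, 290 and 355 without the first and the second CM array without RA, and 1057 without the CM array with RA.

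Other genes of the same pathways were read from lists drawn up around each gene. Counts leave out the member itself, which was chosen on this contrast, and stand beside the 2.63% of all probes called. Of 22 other tested genes of FGF handling and ERK response, 5 were called lower in CM, 0 higher and 17 neither, with a median difference of -0.32 against 0.02 over all probes. They were the ligand Fgf8 (-1.21, SE 0.312), the ERK phosphatase Dusp5 (-1.19, SE 0.233), the heparan sulphate proteoglycans Gpc4 (-1.12, SE 0.29) and Sdc4 (-0.69, SE 0.187), and the receptor Fgfr2 (-0.73, SE 0.193). The differences of Fgfr2 and Fgf8 were seen mainly without RA. Fgfr2 stood at 8.93 and 9.12 in CM against 10.29 in Mock without RA, and at 12.32 against 12.30 with RA for 24 h. Fgf8 stood at 8.53 and 7.73 against 10.17 without RA, and at 4.56 against 4.93 with RA for 24 h. Dusp5 stood at 6.55 and 6.24 on the CM arrays without RA and 9.36 on the CM array with RA, against 8.24, 10.00 and 9.54 on the Mock arrays. The CM values of Dusp5 were thus lower within each schedule and, in both media, higher with RA than without. The ERK targets Dusp6, Etv4, Etv5, Spry4 and Egr1 were among the 17 that did not pass. Fgfbp1 had a difference of -2.42 (SE 0.191) on the same model. As it was chosen on this contrast, its size cannot be compared with that of the called genes.

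Of 12 tested genes of plasminogen activation other than Plaur, 1 was called lower in CM, Anxa2, which encodes a membrane-binding annexin that takes up plasminogen and its activator. Anxa2 stood at 9.67 and 9.57 on the CM arrays without RA and 11.17 on the CM array with RA, against 12.01, 12.26 and 12.04 on the Mock arrays. The CM values lay below all Mock values, and the difference on the model was -1.75 (SE 0.257). The protease genes Plau and Plat and the integrin subunits Itgb1 and Itgav were not called. Of 17 interferon-related genes other than Gbp2 and 5 galectin genes other than Lgals3, 0 were called, with medians of 0.06 and 0.02. Irgm1, a GTPase induced by interferon, stood at 14.38 and 14.37 on the CM arrays without RA and 13.45 on the CM array with RA, against 14.25, 13.66 and 13.84 on the Mock arrays.

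Of 12 hypoxia response genes other than Stc1, the glycolytic enzyme gene Pgk1 (0.54, SE 0.136) was called higher and 0 lower, with a median difference of 0.46. Pdk1 encodes a kinase that limits the use of pyruvate in mitochondria. It stood at 9.16 and 8.75 on the CM arrays without RA and 9.09 on the CM array with RA. On the Mock arrays it stood at 7.09, 6.72 and 7.27. Its CM values lay above all Mock values, but the difference of 1.62 (SE 0.473) did not pass (adjusted p = 0.0635 by limma). Ankrd37 (1.06, adjusted p = 0.058) and Ldha (0.72, adjusted p = 0.0582) also had all CM arrays above all Mock arrays without passing in the same limma model. Pdk1, Ankrd37 and Ldha were named after their values were seen. Of 9 other tested genes of the elastic fibre list, 2 other BRINP genes and 10 other LMO2 partner genes 0 were called, with medians of -0.07, 0.16 and 0.24. Of 12 other Wnt targets, the cyclin gene Ccnd1 was called lower (-0.68, SE 0.187) and 0 higher, with a median of -0.12. Sp5, which was not called, was lower in CM mainly without RA. It stood at 5.95 and 5.36 in CM against 9.01 in Mock without RA, and at 7.03 against 7.27 with RA for 24 h.

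The effect of RA was measured on the 30 compound arrays, which the choice of the genes did not use. RA for 36 h and no RA were compared in an additive model of schedule and compound (limma, p adjusted by Benjamini-Hochberg over 23999 probes). Of the 9 described genes 8 passed, 3 higher and 5 lower, against 53.7% of all probes, 25.1% higher and 28.7% lower. Schedules lay on different slides, so that schedule and slide cannot be told apart on these arrays. The arrays with RA for 24 h had the compound for 36 h, against 24 h on the arrays without RA. RA and compound time therefore cannot be told apart in the 24 h differences below.

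Emilin2 and Brinp2 had the largest changes of the members. Emilin2 ranged over 5.79, 6.14 and 6.39 (lowest, median and highest of 10 arrays) without RA, 5.98, 6.68 and 7.31 with RA for 24 h, and 7.61, 7.81 and 7.94 with RA for 36 h. The 36 h arrays lay above all others, while the 24 h arrays overlapped those without RA. The rise was 1.68 (SE 0.132, adjusted p = 1.59e-10) after 36 h and 0.48 (SE 0.132, adjusted p = 0.00387) after 24 h, and the second Emilin2 probe rose by 1.87 and 0.68. Brinp2 ranged over 6.31, 6.73 and 7.11 without RA, 4.69, 5.32 and 5.73 with RA for 24 h, and 4.91, 5.27 and 5.51 with RA for 36 h. Neither RA schedule overlapped the arrays without RA, and Brinp2 was not above background on 3 of 10 arrays in each RA schedule. Brinp2 fell by 1.52 (SE 0.125, adjusted p = 3.34e-10) after 36 h and by 1.47 (SE 0.125, adjusted p = 9.59e-10) after 24 h.

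Fgfbp1 ranged over 9.16, 9.73 and 10.07 without RA, 9.25, 9.63 and 10.04 with RA for 24 h, and 8.49, 8.88 and 9.22 with RA for 36 h. Only the 36 h arrays were lower, with 1 small overlap with the arrays without RA. Fgfbp1 fell by 0.79 (SE 0.0955, adjusted p = 2.12e-07) after 36 h, while the difference after 24 h was -0.03 (adjusted p = 0.797). Lgals3 ranged over 8.01, 8.83 and 10.02 without RA, 8.04, 9.37 and 9.90 with RA for 24 h, and 9.81, 10.05 and 10.54 with RA for 36 h. The 36 h arrays were high and overlapped each of the other schedules only through its Docetaxel array. Lgals3 rose by 1.19 (SE 0.174, adjusted p = 3.69e-06) after 36 h, and the difference after 24 h was 0.30 (adjusted p = 0.149). On all 36 arrays that 24 h difference was 0.61 and passed. Those include the CM and Mock arrays on which the genes were chosen, so that pass is no independent test.

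Lmo2 and Lbh were lower with RA. Lmo2 ranged over 5.67, 6.17 and 6.53 without RA, 4.68, 5.63 and 6.12 with RA for 24 h, and 4.87, 5.25 and 5.43 with RA for 36 h. The 36 h arrays did not overlap those without RA. Lmo2 fell by 0.92 (SE 0.14, adjusted p = 6.86e-06) after 36 h and by 0.60 (SE 0.14, adjusted p = 0.000976) after 24 h. Lbh ranged over 6.14, 7.19 and 7.66 without RA, 5.53, 5.86 and 6.41 with RA for 24 h, and 6.20, 6.52 and 7.00 with RA for 36 h. It was lowest in the shorter RA schedule, and the schedules overlapped. Lbh fell by 1.18 (SE 0.164, adjusted p = 2.23e-06) after 24 h and by 0.57 (SE 0.164, adjusted p = 0.00543) after 36 h, and its second probe fell by 0.72 and 0.33.

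Plaur, Gbp2 and Stc1 moved less. Plaur ranged over 7.15, 7.68 and 8.04 without RA, 7.67, 8.18 and 8.48 with RA for 24 h, and 7.56, 8.24 and 8.76 with RA for 36 h. It rose by 0.51 (SE 0.141, adjusted p = 0.00372) after 24 h and by 0.69 (SE 0.141, adjusted p = 0.000245) after 36 h, with overlapping arrays. Gbp2 ranged over 7.47, 7.93 and 8.60 without RA, 6.57, 7.39 and 7.61 with RA for 24 h, and 7.20, 7.56 and 7.86 with RA for 36 h. It fell by 0.62 (SE 0.117, adjusted p = 9.73e-05) after 24 h and by 0.39 (SE 0.117, adjusted p = 0.00755) after 36 h, again with overlap. Stc1 was above background on 4, 4 and 6 of the 10 compound arrays in the 3 schedules, with medians of 5.25, 5.03 and 5.26, and its RA differences of -0.30 after 24 h and -0.22 after 36 h did not pass (adjusted p = 0.293 and 0.457). In all, 6 of the 9 genes passed after 24 h, 2 higher and 4 lower, against 56.3% of all probes, 26.3% higher and 30% lower.

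**Figure D3:**
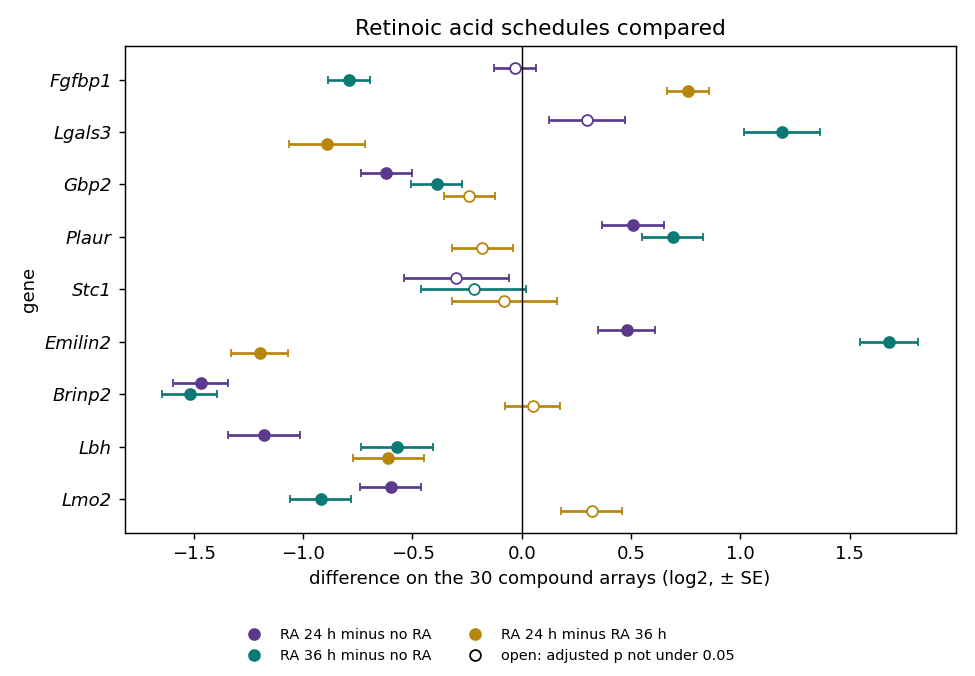
Differences between RA schedules on the 30 compound arrays (log2, horizontal axis, with SE bars) for each gene (vertical axis), from the additive model; filled symbols had an adjusted p under 0.05. After 36 h Emilin2 (1.68) and Brinp2 (-1.52) lie farthest from 0, and Stc1 has no filled symbol.

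The 2 RA schedules were also set against each other, with compound time (36 h against 24 h) differing along with RA time. Fgfbp1 was higher with RA for 24 h than for 36 h (0.76, SE 0.0955, adjusted p = 1.42e-06), and its arrays in these schedules did not overlap. Lgals3 (-0.89, SE 0.174, adjusted p = 3e-04), Emilin2 (-1.20, SE 0.132, adjusted p = 2.21e-07) and Lbh (-0.61, SE 0.164, adjusted p = 0.00517) were lower. These 4 of 9 genes compare with 37.7% of all probes, 19.6% higher and 18.1% lower. On the authors' deposited normalised values the Lbh difference was -0.10 and did not pass.

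The Mock arrays, 1 per schedule and with no test, had the same sign of the difference between RA for 36 h and no RA for 8 of the 9 genes, and the opposite sign for Stc1 (0.38). Mock differed from the compound arrays in how much had changed after 24 h. Emilin2 was 2.29 higher with RA for 24 h than without on the Mock arrays, against 0.48 on the compound arrays, and Fgfbp1 was 0.87 lower, against 0.03. For Lmo2 this difference was -2.02 on the Mock arrays against -0.60, and for Stc1 0.46 against -0.30. For Lgals3 the order of the RA schedules turned round: RA for 24 h minus RA for 36 h was 0.50 on the Mock arrays and -0.89 on the compound arrays. The sign of this difference also turned for Plaur (0.59 on Mock against -0.18), Gbp2 (0.09 against -0.24), Lmo2 (-0.10 against 0.32) and Stc1 (0.08 against -0.08). None of these had passed on the compound arrays. Fgfbp1, Emilin2, Brinp2 and Lbh kept their sign.

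Placed beside the CM values, the RA directions fell into 4 kinds. Emilin2 was higher in CM and rose with RA, while Fgfbp1 and Gbp2 were lower in CM and fell with RA for 36 h. Lgals3 and Plaur were lower in CM and rose with RA for 36 h, and Brinp2, Lbh and Lmo2 were higher in CM and fell with RA. Stc1 was higher in CM, with no RA difference that passed.

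The lists around these genes moved with RA in both directions, and their counts, which include the member named above, stand beside 25.1% of all probes higher and 28.7% lower after RA for 36 h. After RA for 36 h, 9 of 13 plasminogen genes rose, 1 fell and 3 did not pass, with a median of 0.69 against -0.03 over all probes. The plasminogen activator gene Plat rose by 4.54 (SE 0.129), the matrix protease gene Mmp9 by 1.47 (SE 0.11) and Plau, which encodes the ligand of the Plaur receptor, by 1.01 (SE 0.165), while S100a10, which encodes the partner of annexin A2, fell by 0.53 (SE 0.126). Of 10 elastic fibre genes 7 rose, such as Fbln2 by 1.60 (SE 0.113) and Fbln1 by 1.40 (SE 0.0777), and Eln, the elastin gene, fell by 0.23 (SE 0.0946). Of 6 galectin genes Lgals3 and Lgals1 (1.36, SE 0.0814) rose and 0 fell. Of 18 interferon-related genes 2 rose and 7 fell: the antiviral membrane protein genes Ifitm3 and Ifitm1 rose by 2.76 and 2.01, and Bst2, Psmb9 and Cxcl10 fell by 1.14, 1.09 and 0.93.

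The FGF and ERK list split evenly after RA for 36 h, with 9 of 23 genes higher and 9 lower, where 53.7% of all probes passed in either direction. The receptor gene Fgfr2 (2.33), the carrier gene Fgfbp3 (2.29) and Dusp5 (2.08) rose, and the ligand genes Fgf5 and Fgf8 and the ETS factor gene Etv4 fell by 5.19, 4.65 and 2.30. Fgfbp1 and Fgfbp3, carriers of the same family, thus changed in opposite directions. Of 3 BRINP genes Brinp2 and Brinp1 (-0.73, SE 0.0935) fell. Of 11 LMO2 partner genes 4 rose, with Lmo3 at 1.55, and 5 fell, with Tal2 at -4.60, Ldb2 at -1.71 and Etv2 at -1.58. Of 13 hypoxia genes 5 rose and 6 fell, and of 13 Wnt targets 3 rose and 4 fell, among them Lef1 at -2.64, a share of passing Wnt targets near that of all probes.

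No compound moved any of the 9 genes past the threshold. Each compound was set against the mean of the other 9 over the 3 schedules (n = 3 arrays), in the same limma model, which made 90 differences of described probes, from -0.58 to 0.86. After adjustment over all probes 0 passed, and 7 (7.78%) had an unadjusted p under 0.05, against 4.69% of all probes over the 10 compounds (3.51% to 10.5% by compound, highest for Docetaxel). Over all probes, Docetaxel had 0.571% called (137 probes), 0.388% higher and 0.183% lower, and each of the other 9 compounds 0%. A p that misses the threshold does not show that a compound left these genes as they were.

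Lgals3 under Docetaxel was the largest of the 90 differences. On the Docetaxel arrays Lgals3 stood at 10.02 without RA, 9.90 with RA for 24 h and 10.54 with RA for 36 h, against highest values of 9.42, 9.52 and 10.47 on the arrays of the other 9 compounds. It was the highest compound array in each schedule, by little in the last. The difference of 0.86 (SE 0.237) had an unadjusted p of 0.00138 in the limma model and an adjusted p of 0.126, with 0.055 to 0.669 over 11 alternatives. Rapamycin had the lowest Lgals3 (-0.58, SE 0.237, adjusted p = 1 in the same model). The other 5 with an unadjusted p under 0.05 were Fgfbp1 with PF573228 (0.28) and BAPTA-AM (-0.27), Gbp2 with BAPTA-AM (-0.34) and Docetaxel (-0.41), and Lmo2 with Dorsomorphin (0.43).

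**Figure D4:**
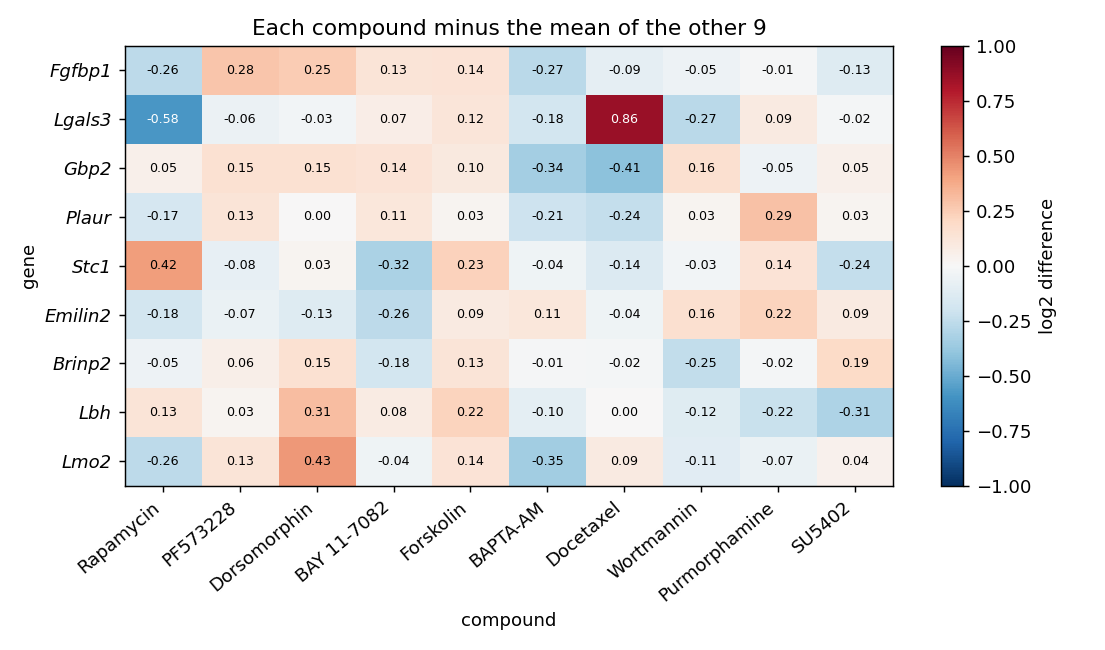
Difference of each compound (horizontal axis) from the mean of the other 9 over 3 schedules, for each gene (vertical axis), in log2 units as printed in the cells and by colour. None had an adjusted p under 0.05, and the largest were Lgals3 with Docetaxel (0.86) and with Rapamycin (-0.58).

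Some compound arrays differed with the schedule, which a mean over schedules hides. A comparison added after the data had been seen set each compound's difference with RA (mean of both RA schedules) against that without RA. Of 120 such differences for probes of these genes, that of Lbh with Docetaxel passed, where 0.1% of all probes (24) passed for Docetaxel. Lbh on the Docetaxel array stood at 6.14 without RA, 6.41 with RA for 24 h and 7.00 with RA for 36 h, against 6.53 to 7.66, 5.53 to 6.26 and 6.20 to 6.75 on the other 9 arrays. The Docetaxel array was below all the others without RA and above all of them in both RA schedules. The Lbh difference was 1.07 lower without RA, 0.54 higher with RA for 24 h and 0.53 higher with RA for 36 h, and the change with RA was 1.60 (SE 0.232, adjusted p = 0.0174 by limma). Against the 4 compounds on the same slides it was 1.30 and no longer passed. Over 5 alternatives the adjusted p ranged from 0.0051 to 0.421, and the second Lbh probe had a change of 0.90 (adjusted p = 0.274 by limma). Each point is a single array.

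Plaur with Docetaxel went the other way without passing. The Docetaxel array stood at 8.04 without RA, 7.79 with RA for 24 h and 7.56 with RA for 36 h, against 7.15 to 7.82, 7.67 to 8.48 and 8.07 to 8.76 on the other 9 arrays. It was above the others without RA and below them with RA for 36 h. The change with RA was -1.07 (SE 0.37, adjusted p = 0.302 by limma).

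**Figure D5:**
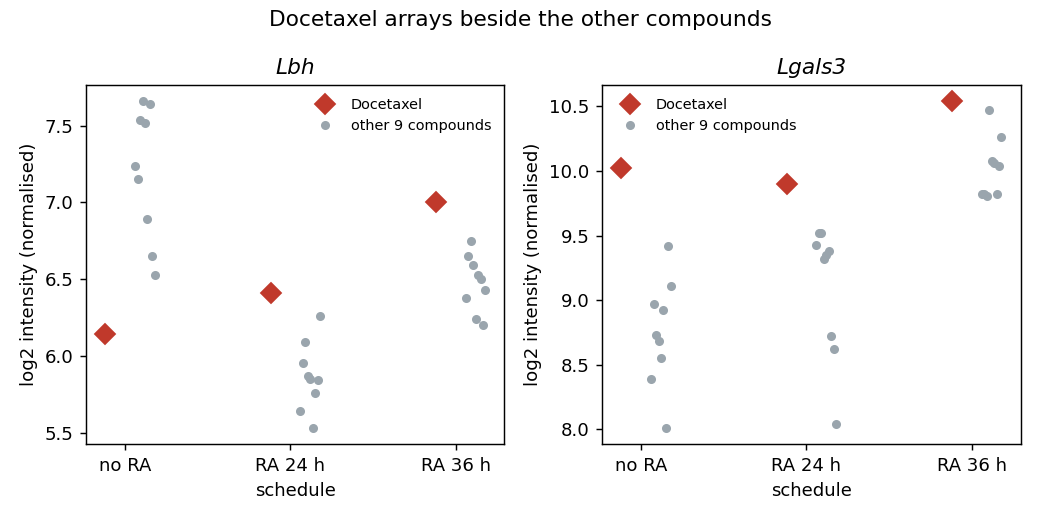
Normalised log2 intensity (vertical axis) of Lbh and Lgals3 on the Docetaxel array (red diamond) and on the arrays of the other 9 compounds (grey) in each schedule (horizontal axis). For Lbh the diamond is lowest without RA (6.14) and highest in both RA schedules; for Lgals3 it is highest in all 3.

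Among the 30 compound arrays the 9 genes did not move as 1 group. With the mean of each schedule removed, Pearson's r between pairs of the genes, given as a description over arrays that share slides, ranged from -0.59 (Plaur and Lbh) to 0.65 (Fgfbp1 and Plaur). The 6 pairs among the 4 genes lower in CM ranged from -0.04 (Lgals3 and Gbp2) to 0.65. Stc1 and Lbh had an r of 0.52 and Lbh and Lmo2 of 0.50, while Brinp2 had r between -0.13 and 0.23 with the other 8.

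The named genes whose pattern was most like each member, by the same measure over 30 arrays, were as follows. Lgals3 was most like Krt8, a keratin gene of simple epithelia (r = 0.87, Spearman's rho 0.80), and Anxa2 (r = 0.87, rho 0.84). Plaur was most like the annexin gene Anxa1 (0.82) and Cln3 (0.79), and Lbh like Acly, which encodes ATP citrate lyase (0.84), and Gna11 (0.82). Emilin2 was most like Mettl22 (0.79) and Hbp1 (0.77). For Fgfbp1 these were Fndc4 (0.74) and Sema3e (0.69), for Gbp2 9130401M01Rik and Plekha2 (both 0.69), for Stc1 Pxylp1 (0.74) and Foxd4 (0.73), for Brinp2 2510002D24Rik and Slit1 (both 0.63), and for Lmo2 Azi2 (0.74) and Kank1 (0.72). As these were picked as the highest of many probes, the r values have no test.

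Probes of the same gene did not always give the same size. The second Emilin2 probe was at least 2.51-fold higher in CM without RA, where its Mock array was not above background, and had CM minus Mock of 1.25 with RA for 24 h, against 1.27 for the described probe. The second Lbh probe had 0.93 and 0.21, against 1.59 and 1.20 for the described one. On the CM array with RA this second probe (5.53) lay within the compound arrays of that schedule (4.53 to 5.93). Of the other Gbp2 probes, 1 was above background on no array and 1 on 6 of 36, and neither was above background on any CM or Mock array, so the Gbp2 difference rests on 1 probe. The second Stc1 probe was above background on 1 array, a compound array. Fgfbp1, Lgals3, Plaur, Brinp2 and Lmo2 had 1 probe each.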

How the data were processed

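Total RNA of EpiSC was measured on 36 bead arrays. The authors deposited raw intensity values per probe; 30.2% to 36.6% of an array's values lie below zero, and no source used here names the software behind them. Detection p-values were deposited beside each intensity, per the file headers. The authors also deposited log2 values, made by variance stabilisation and robust spline normalisation with lumi, per the labels' design text (version not stated). Intensities were normalised here with neqc in limma 3.58.1 (R 4.3.3; offset 16, background from the detection p-values, quantile normalisation). The filter asked for a detection p under 0.05 on 3 or more arrays, which 23999 of 45281 probes met.

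Gene symbols came from GEO's platform annotation, which gave 34885 probes 1 symbol, 18 several and 10378 none. Schedules and compounds were tested on the 30 compound arrays with lmFit and eBayes (additive, 18 residual degrees of freedom), and CM minus Mock on all 36 arrays (22 residual degrees of freedom), with Benjamini-Hochberg adjustment and a threshold of 0.05. Where a probe was above background on no Mock array of a schedule, the fold is a lower bound that uses the array's detection limit. Every probe of the 9 genes is reported; of the pathway lists, up to 3 genes each way with the largest change past the threshold are named, along with genes named to show what was not called, which were chosen after their values had been seen. The genes and lists were chosen with earlier results of these data known. The number of arrays limits the precision. The fits were tested on simulated data. Alternatives were the authors' values, offset 50, cyclic loess, other filters (none, or detection on 18 arrays), 1 probe per gene, slide as a block and leaving out single arrays.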

Additional observations from a re-analysis of the deposited data

Results flagged for a closer look

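The change of the Docetaxel difference with RA stood out for Lbh: it was 1.60 (SE 0.232, adjusted p = 0.0174 by limma), higher with RA than without in both RA schedules, and it was picked out because the test of the difference between conditions itself passed. It rests on 1 Docetaxel array per schedule and was 1 of 120 such differences for these genes, with p adjusted within each compound only. Of 27 sets of 10 compound arrays, 1 per gene and schedule, a screen for a single outlying array flagged 0. An array could lie outside the other 9 without being flagged. With RA for 24 h, Gbp2 on the Docetaxel array stood at 6.57, against 6.99 to 7.61 on the other 9.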

How the results depend on the processing

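Of the RA, compound and interaction results for single genes, 229 values kept their direction and their side of the threshold under the alternatives, 2 kept their direction and no longer passed (Lbh for RA 24 h minus RA 36 h on the authors' values, -0.10, and Lbh with Docetaxel against the same slides, 1.30), and 1 passed anew (Lgals3 for RA 24 h minus no RA on all 36 arrays, 0.61). All 36 arrays include those on which the genes were chosen, so results on them are no independent check. The other filters and 1 probe per gene could move the p-values of the described probes but not their differences. CM minus Mock chose the genes, so its values under other settings are no check of them. Without the Mock array without RA, CM minus Mock was 1.79 for Stc1 and 1.09 for Emilin2, without the first CM array without RA it was 1.73 for Stc1 and 1.22 for Lbh, and for Lmo2 it was 1.12 without the Mock array with RA for 24 h and 0.97 without the CM array with RA. In each of these cases the difference no longer passed the threshold. With all arrays it was 2.05 for Stc1, 1.54 for Emilin2, 1.48 for Lbh and 1.46 for Lmo2. Leaving out single CM or Mock arrays gave 188 to 1057 probes past the threshold for CM minus Mock, against 632. With slide as a random block, 5969 probes passed for RA 24 h minus RA 36 h, against 9048. On the Mock arrays alone, chosen as an alternative after seeing the data, Lgals3 for RA 24 h minus RA 36 h reversed to 0.50. Plaur, Gbp2, Lmo2 and Stc1, which had not passed for this difference, also had the opposite sign there. The cause was not tested. For the compounds, 0 of 90 differences passed under each of the 11 alternatives run. No paired analysis was possible because only the CM group without RA has numbered replicates; schedules were compared within compound by the additive model. Stc1, Brinp2 and Lmo2 were above background on 19, 29 and 28 of 36 arrays, so that background limits their lowest values.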
